A study of Mus musculus with 32 samples.

Results

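Krüppel-like factors (KLFs) are zinc finger proteins that bind GC-rich DNA. Of their genes, 10 (Klf2, Klf3, Klf4, Klf5, Klf6, Klf7, Klf9, Klf10, Klf11 and Klf13) were followed from a monocyte graft into libraries sorted as gut macrophages. They were chosen by symbol and were present in both count tables, among 24411 genes of the first and 24421 of the second. Mice were on a C57BL/6 background. Recipients in the main experiment were irradiated bone marrow (BM) chimeras, 7 to 10 weeks old at engraftment, whose blood cells carried the CD11c-DTR transgene. In these mice the Itgax promoter drives a diphtheria toxin receptor, so that the toxin kills CD11c+ cells, while epithelium and stroma stay those of the wild type host. They were given 18 ng toxin per g before monocyte transfer and 9 ng per g afterwards, and macrophages derived from the transferred cells were sorted from colon and ileum on days 4, 8 and 12. The transferred monocytes were Ly6C+ BM cells of Cx3cr1-GFP/+ donors. In a second experiment the BM of the chimeras carried Cx3cr1-DTR instead, and 6 colon libraries were deposited, which the study places on day 14.

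There were 3 libraries of the monocyte graft, 3 each of colon days 4 and 8, 4 of colon day 12 and 4 each of ileum days 4, 8 and 12. The labels give the organ of the graft as blood, whereas the methods describe BM. Reads on genes ran from 591817 to 5228664 per library (median 2447862) and from 1223772 to 4218027 in the CX3CR1-DTR libraries. Values are normalized reads, which are counts per 10000000 mapped reads. In the CX3CR1-DTR comparison they are per 10000000 reads on genes listed in both tables. Since nothing ties a library to a single animal, p-values measure the spread between libraries. Dates in the sample titles assign the libraries to 3 experiments. The title of ileum day 8 replicate 2 has the day and month of experiment 3 but the year before, and it was read as experiment 3. A further colon day 8 library (replicate 1, experiment 1) is not among the study's listed repeats and enters only where it is named.

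KLFs share a DNA-binding end and differ in the rest of the protein, through which some recruit corepressors and others coactivators. KLF2 is known for keeping lymphocytes, monocytes and endothelial cells quiet, KLF4 for driving monocyte differentiation and for the maturation of gut epithelium, and KLF5 for proliferation in intestinal crypts. KLF6 takes part in inflammatory gene expression of macrophages. KLF3 is a repressor that works through CtBP. KLF7 is studied mostly in neurons and KLF9 as a gene induced by glucocorticoids and thyroid hormone. KLF10 and KLF11 are induced by TGF-beta and repress through SIN3, and KLF13 acts in lymphocytes on chemokine expression.

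The marker genes of the labelled cell types were checked first. In the graft, 6 pan-leukocyte genes summed to 82284 to 95109 normalized reads, against 1658 to 7511 in the 10 colon libraries and 5060 to 40779 in the 12 ileum libraries. The 8 macrophage markers summed to 9423 to 11932 in the graft, to 3291 to 18605 in colon and to 8313 to 91452 in ileum. The 10 markers of intestinal epithelium (among them Epcam, Cdh1, Krt8 and Vil1) summed to 23.3 to 30.9 in the graft, with Krt20, Vil1 and Cdx1 at 0 in all 3 libraries. They summed to 73403 to 112787 in colon and 13242 to 90356 in ileum, and each of the 10 had more than 3 counts in every library of both segments. All 10 rose from the graft to day 4 in both segments. The labels give CD45, CD11b and CD64 among the sort markers and the study CD45.1 and GFP, and the share of epithelial RNA in the measured KLF levels was not tested. In bulk libraries fewer cells of a type and less RNA per cell cannot be told apart.

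The promoters of 4 members are shown because the results turn on these genes. They are the 250 bases before the transcript start that the files give, read from the mm9 genome (NCBIM37), the build of the files. The sequences are written 5′ to 3′ on the strand of the gene. Capitals mark the CACCC box, the letters that KLF fingers typically read (CACCC on either strand), and in Klf2 also a match to the MEF2 site. The windows are chr8:74842711-74842960 (+ strand) for Klf2, chr4:55545348-55545597 (- strand) for Klf4, chr14:99697660-99697909 (+ strand) for Klf5 and chr7:71083802-71084051 (- strand) for Klf13.
Klf2: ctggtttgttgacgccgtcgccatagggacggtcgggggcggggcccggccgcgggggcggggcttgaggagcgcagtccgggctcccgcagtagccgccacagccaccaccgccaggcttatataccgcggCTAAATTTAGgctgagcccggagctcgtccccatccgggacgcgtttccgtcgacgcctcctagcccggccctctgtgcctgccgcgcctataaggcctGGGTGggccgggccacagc
Klf4: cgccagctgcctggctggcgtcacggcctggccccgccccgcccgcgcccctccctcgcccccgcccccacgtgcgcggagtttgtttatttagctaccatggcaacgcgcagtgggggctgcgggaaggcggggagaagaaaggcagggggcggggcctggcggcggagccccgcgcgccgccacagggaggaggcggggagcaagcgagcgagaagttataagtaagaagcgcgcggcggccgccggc
Klf5: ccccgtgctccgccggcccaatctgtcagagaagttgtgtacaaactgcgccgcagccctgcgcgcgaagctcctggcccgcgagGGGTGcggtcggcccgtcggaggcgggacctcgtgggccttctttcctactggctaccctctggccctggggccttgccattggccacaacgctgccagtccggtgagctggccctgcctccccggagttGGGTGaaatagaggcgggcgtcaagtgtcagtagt
Klf13: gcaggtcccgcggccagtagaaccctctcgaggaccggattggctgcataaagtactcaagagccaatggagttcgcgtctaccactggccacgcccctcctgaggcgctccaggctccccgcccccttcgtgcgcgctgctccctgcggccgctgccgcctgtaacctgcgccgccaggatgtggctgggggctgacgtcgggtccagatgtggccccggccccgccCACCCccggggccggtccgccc
The MEF2 match of Klf2 begins 118 bases before the start, and it is the single one among the 10 members. Of 24340 promoters of the same length, 2.60% held such a match. A CACCC box stood in the windows of 6 of the 10 members (Klf2, Klf3, Klf5, Klf7, Klf9 and Klf13) and in 52.6% of all promoters. The GC box GGGCGG, searched on both strands and free to overlap, was in 8 of the 10 members and in 41.3% of all. It was missing from the windows of Klf5 and Klf9. The genes lie on different chromosomes, with Klf3 at chr5:65194762-65221368 (+), Klf6 at chr13:5860735-5869639 (+), Klf7 at chr1:64082247-64167963 (-), Klf9 at chr19:23215716-23241401 (+), Klf10 at chr15:38224161-38230466 (-) and Klf11 at chr12:25336236-25347647 (+). A match in these letters is a description of the sequence and says nothing about binding in these cells.

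The graft was compared with the gut libraries sorted as its progeny, which also held epithelial marker RNA nearly absent from the graft. A rise or fall is a difference between these libraries. A change within monocytes cannot be told apart from a change in cell mixture. From the graft to colon day 4, 4 of the 10 members rose (Klf4, Klf5, Klf7 and Klf9) and 3 fell (Klf2, Klf11 and Klf13). A gene passed at an adjusted p under 0.05 in edgeR's quasi-likelihood test, and libraries are counted as higher or lower by the mean of the graft. Among all 11842 genes tested, 35.9% rose and 24.5% fell in that comparison. From the graft to ileum day 4, 4 rose (Klf5, Klf6, Klf7 and Klf9) and 3 fell (Klf2, Klf10 and Klf13), where 36.2% of all genes rose and 20.5% fell. Members that passed thus made up 7 of 10 in each segment, where 60.4% of all genes passed in colon and 56.7% in ileum. In colon day 8, 4 members rose and 3 fell (59.1% of all genes passed, 35.2% up and 23.9% down), and in colon day 12, 4 rose and 2 fell (62.6%, 37.7% and 24.9%). In ileum day 8, 3 rose and 4 fell (53.9%, 34.3% and 19.5%), and in ileum day 12, 3 rose and 5 fell (55.9%, 35.9% and 20.0%). The median log2 fold change of the members was 0.65 in colon day 4 and 0.28 in ileum day 4, beside 0.21 and 0.23 for all genes. The graft libraries are shared by the 6 comparisons.

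**Figure D1:**
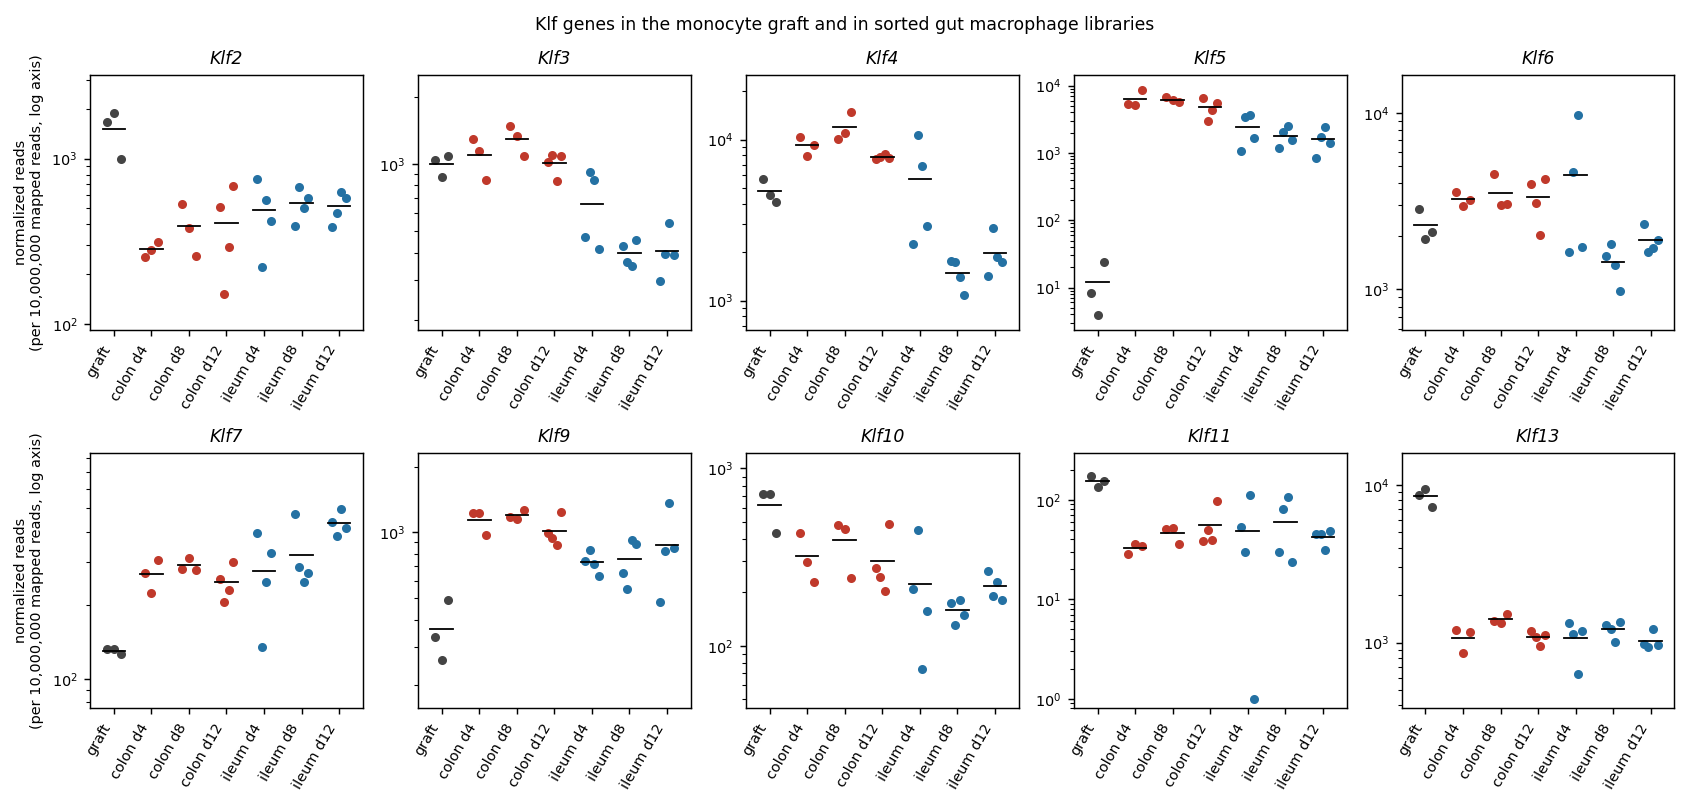
Normalized reads of each Klf gene (log axis, per 10000000 mapped reads) in every library of the graft, colon and ileum by day, with points for libraries and bars for group means. Klf5 lies between 3.88 and 24.2 in the graft and at 838 or more in every gut library, and Klf13 lies at 7273 or more in the graft and at 1517 or less in all others. The 0 of Klf11 in 1 ileum day 4 library is drawn at 1.

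Klf13 was the member with the largest fall. It stood at 8671, 9395 and 7273 normalized reads in the 3 graft libraries. In the colon it read 1199, 863 and 1161 on day 4 and 1364, 1336 and 1517 on day 8. All 22 gut libraries lay below every graft library, and the groups did not overlap. The log2 fold change was -2.64 ± 0.24 (SE) to colon day 4 (adjusted p = 3.46e-09, lower in 3 of 3 libraries) and -2.55 ± 0.22 to ileum day 4 (adjusted p = 1.52e-09, lower in 4 of 4). From day 4 on, its group means stayed between 1027 and 1406, and neighbours in the order of these 6 means overlapped. No colon to ileum comparison of Klf13 passed (adjusted p = 0.855 on day 4, 0.698 on day 8 and 0.879 on day 12). The 6 pan-leukocyte genes all fell from the graft to day 4 in both segments, with a median log2 fold change of -4.30 in colon and -2.12 in ileum, and their part in the falls of Klf13 and Klf2 was not tested.

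Klf2 fell as well, though less evenly. The graft libraries held 1659, 1897 and 998 normalized reads, and colon day 4 held 255, 282 and 311. Ileum day 4 held 756, 220, 562 and 421. Every gut library was below every graft library. The log2 fold change was -2.08 ± 0.45 to colon day 4 (adjusted p = 0.000402, lower in 3 of 3 libraries), -1.73 ± 0.45 to day 8 and -1.52 ± 0.40 to day 12, all past the threshold. In the ileum it was -1.18 ± 0.41 on day 4 (adjusted p = 0.0175, lower in 4 of 4), -0.93 ± 0.40 on day 8 (adjusted p = 0.0571, not passed) and -1.08 ± 0.40 on day 12 (adjusted p = 0.0265). With the experiment as a replicate block the day 8 change passed (adjusted p = 0.0265), as it did with library totals alone (0.00216), without the filter on low counts (0.0394), with only the groups compared (0.0308), with the experiment 2 pair of ileum day 4 alone (0.0368) and without graft replicate 3, ileum day 8 replicate 4, ileum day 4 replicates 1 or 2, or colon day 12 replicates 2 or 4 (0.0327 to 0.0473). The call of ileum day 4 was lost with only the groups compared (0.0664), with the experiment 2 pair alone (0.0958) and without graft replicate 2 (0.0734) or ileum day 4 replicate 2 (0.0629). That of day 12 was lost without graft replicates 1 (0.0563) or 2 (0.103) or ileum day 12 replicates 1 (0.0609) or 2 (0.0636).

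Klf10 and Klf11, the TGF-beta-inducible repressors, had lower mean levels in the gut of the CD11c-DTR recipients than in the graft. Klf10 averaged 624 ± 165 normalized reads (SD, n = 3) in the graft, 319 ± 103 (n = 3) in colon day 4 and 222 ± 162 (n = 4) in ileum day 4. Its 4 ileum day 4 libraries read 208, 450.5, 73.7 and 157, and the second overlapped the graft. The change passed in the ileum on day 4 (log2 -0.99 ± 0.38, adjusted p = 0.0310), day 8 (-1.40 ± 0.39, 0.00374) and day 12 (-1.04 ± 0.38, 0.0220), lower in 4 of 4 libraries each. In the fit over all groups it passed on no day in the colon, where the log2 value on day 4 was -0.63 ± 0.40 (adjusted p = 0.182). On colon day 4 it passed with library totals alone (-0.96, 0.0463). Other settings are not given for Klf10 on colon days 8 and 12. The day 4 call in the ileum was lost under the replicate block (0.0698), with only the groups compared (0.136) and without graft replicate 1 (0.0689), graft replicate 2 (0.0896), or ileum day 4 replicates 1 (0.0633), 3 (0.0860) or 4 (0.0863). The day 12 call was lost without graft replicates 1 (0.0525) or 2 (0.0708) or ileum day 12 replicate 2 (0.0561).

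Klf11 read 174, 136 and 153 in the graft and 28.7, 35.6 and 34.6 in colon day 4. The 2 groups did not overlap. It fell by 1.89 ± 0.61 on the log2 scale (adjusted p = 0.00993) to colon day 4, and -1.49 ± 0.59 was found on colon day 8 (0.0332) and -1.35 ± 0.54 on ileum day 12 (0.0378). Colon day 12 (-1.06 ± 0.53, 0.0838), ileum day 4 (-1.31 ± 0.58, 0.0576) and ileum day 8 (-0.85 ± 0.54, 0.194) did not pass. These are small counts, between 0 and 59 per gut library of the comparisons, and ileum day 4 replicate 4 had 0 counts, which allows up to 3 counts or 21.4 normalized reads. The colon day 8 call was lost when graft replicates 1 or 3 or any colon day 8 library was left out (adjusted p = 0.0617 to 0.107). That of ileum day 12 was lost without any 1 of the graft libraries or without ileum day 12 replicates 2 or 3 (0.0537 to 0.0966). Colon day 12 passed without colon day 12 replicate 4 (0.0234) or ileum day 4 replicate 4 (0.0401), and ileum day 4 without its replicate 3 (0.00715), with the experiment 2 pair alone (0.0286) or in DESeq2 (0.0309). With library totals alone colon day 12 (0.0182), ileum day 4 (0.00920) and ileum day 8 (0.0301) passed.

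Klf5, the crypt-associated member, showed the largest rise. The graft libraries held 3, 2 and 10 counts of it, or 8.42, 3.88 and 24.2 normalized reads. Colon day 4 stood at 5270, 5200 and 8604 normalized reads, and ileum day 4 at 1060, 3371, 3677 and 1655. Even the lowest gut library, with 838, was above the highest of the graft. The ratio of the colon day 4 mean to the pooled graft level had an exact Poisson 95% interval of 330 to 973, which covers counting error of the graft alone. For ileum day 4 the interval was 127 to 374. The fitted log2 fold change was 9.34 ± 0.67 to colon day 4 (adjusted p = 9.21e-11) and 8.09 ± 0.64 to ileum day 4 (4.86e-10). In the order of its means (colon days 4, 8 and 12, then ileum days 4, 8 and 12, then the graft) each gut group overlapped the next. The graft did not overlap its neighbour. Gut groups farther apart in this order could be separate, as colon days 4 and 8, with at least 5200, lay above every ileum library, with at most 3677.

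Klf5 moved with the epithelial markers. Across the 10 colon libraries its log2 level and that of the 10-gene epithelial sum had Pearson's r of 0.86 and Spearman's rho of 0.87, and across the 12 ileum libraries 0.93 and 0.94. Without the 2 libraries farthest from the median sum, r was 0.93 in colon and 0.90 in ileum. These libraries share their sorts and depths, so the coefficients are given as a description. Klf13 had r of 0.41 in colon and -0.52 in ileum, and Klf2 0.23 and -0.30. Klf4 had 0.48 in colon and 0.87 in ileum, where it was 0.41 without the 2 farthest libraries. Klf7 had 0.61 in colon and -0.71 in ileum, and 0.85 and -0.27 without the 2 farthest. Klf3 had 0.17 in colon and 0.84 in ileum, and Klf6 0.15 and 0.76. In the ileum these were 0.29 for Klf3 and -0.15 for Klf6 without the 2 farthest. The values were 0.21 and 0.31 for Klf9, 0.13 and 0.02 for Klf10, and -0.50 and 0.30 for Klf11. The part of epithelial RNA in the Klf5 level was not tested. Beside the sum of the 7 endothelial markers, Klf2 had r of 0.76 in colon and 0.55 in ileum. Without the 2 farthest libraries these were 0.55 and 0.45. With the same sum Klf7 had 0.61 and 0.71, Klf13 -0.01 and 0.62, and Klf4 -0.22 and -0.88. Without the 2 farthest libraries Klf7 had 0.46 and 0.10, Klf13 -0.11 and 0.67, and Klf4 -0.49 and -0.15. The part of endothelial RNA in the Klf2 level was not tested.

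**Figure D2:**
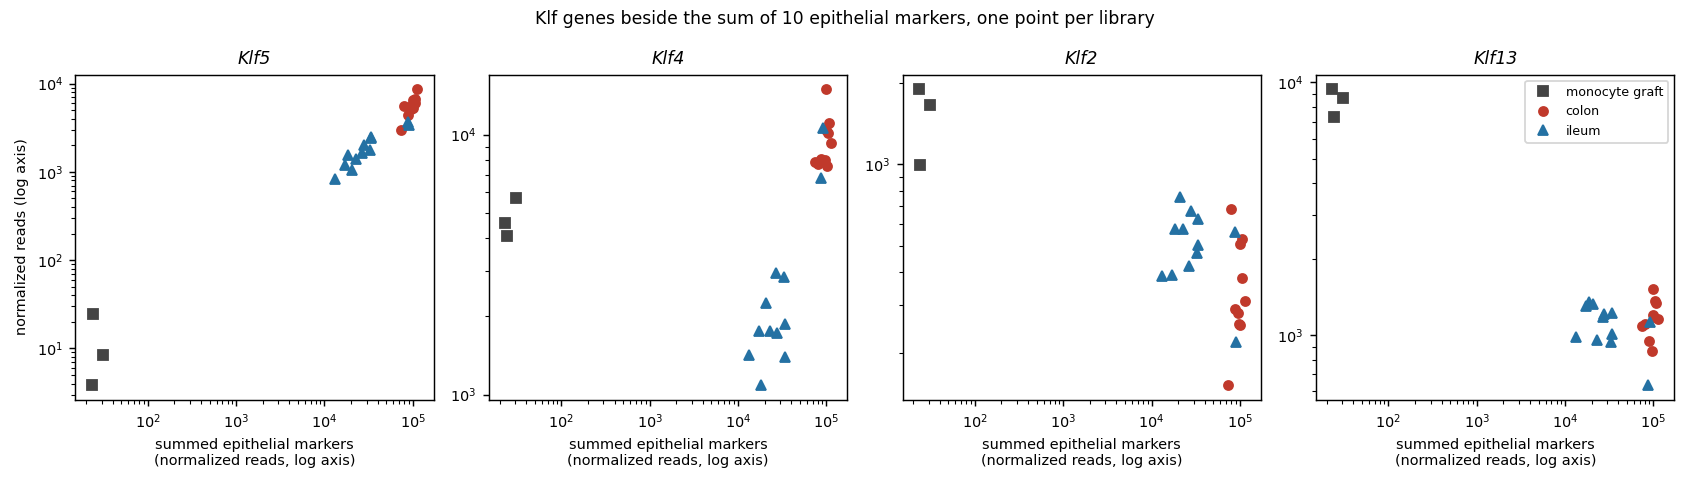
Normalized reads of Klf5, Klf4, Klf2 and Klf13 (log axes) against the summed normalized reads of 10 epithelial markers, with 1 point per library of graft, colon and ileum. Klf5 rises along the epithelial sum within both segments, and 2 ileum libraries, day 4 replicates 2 and 3, sit among the colon libraries at sums of 90356 and 87092.

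Klf4 was already well expressed in the monocytes, at 5695, 4563 and 4083 normalized reads. It was higher in all colon libraries of the comparisons, with 10435, 7957 and 9311 on day 4 and 10171, 11073 and 14947 on day 8. The groups did not overlap. The log2 fold change was 1.28 ± 0.39 on colon day 4 (adjusted p = 0.00697), 1.60 ± 0.39 on day 8 (0.0013) and 1.07 ± 0.37 on day 12 (0.0150), up in every library. The day 12 call was lost with library totals alone as the scaling (0.71, adjusted p = 0.101) and without graft replicates 2 (0.0530) or 3 (0.0608).

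In the ileum Klf4 was below the graft on days 8 and 12. It read 1757, 1733, 1392 and 1091 on day 8, and 1422, 2834, 1875 and 1749 on day 12. On day 8 the log2 fold change was -1.14 ± 0.36 (adjusted p = 0.0100, lower in 4 of 4). It was -0.82 ± 0.36 on day 12, which did not pass (0.0558) and did with the experiment as a replicate block (0.0364). It also passed with library totals alone (0.00414), without the filter on low counts (0.0482), with only the groups compared (0.0179), with the experiment 2 pair of ileum day 4 alone (0.00181) and without ileum day 4 replicates 1, 2 or 4 or ileum day 12 replicate 2 (0.0259 to 0.0364). On day 4 the ileum libraries were split by experiment, with 10651 and 6838 in experiment 1 and 2252 and 2924 in experiment 2. The experiment 1 pair also had the 2 highest epithelial sums of the ileum (90356 and 87092, against 20728 and 26653). Within experiments the log2 ratio of ileum day 4 to the graft was 1.10 in experiment 1 and -1.14 in experiment 2. The fit over all 4 libraries gave 0.70 ± 0.37 (adjusted p = 0.110), and -0.51 with the experiment 2 pair alone. Without ileum day 4 replicates 1 or 4 it passed as a rise (adjusted p = 0.0180 and 0.0276).

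Klf3, the CtBP-binding repressor, did not pass in the colon in the fit over all groups and was lower in the ileum on days 8 and 12. It read 1036, 870 and 1087 in the graft, 1291, 1144 and 850 in colon day 4, and 428, 364, 348 and 455 in ileum day 8. The graft and ileum day 8 did not overlap. Its log2 fold change from the graft was 0.47 ± 0.29 to colon day 4 (adjusted p = 0.170, not passed), 0.62 ± 0.29 to colon day 8 (0.0723, and 0.0486 without ileum day 4 replicate 4), -0.74 ± 0.28 to ileum day 8 (0.0274) and -0.83 ± 0.27 to ileum day 12 (0.0131). With only the groups compared, colon day 4 (0.55, adjusted p = 0.0282) and day 8 (0.71, 0.00381) passed as rises, as did day 8 with the experiment 2 pair of ileum day 4 alone (0.0238). The ileum day 8 call was lost under the replicate block (0.0531), with only the groups compared (0.0561) and without graft replicates 1 (0.0535) or 3 (0.0882) or ileum day 8 replicates 2 (0.0774) or 3 (0.0766). Leaving out graft replicate 3 also ended that of day 12 (0.0504). On ileum day 4 the value was -0.14 ± 0.28 (adjusted p = 0.680), with 916 and 848 in the experiment 1 pair and 469 and 414 in the experiment 2 pair. It was -0.78 and passed in the fit with the experiment 2 pair alone (adjusted p = 0.0216).

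Klf7 and Klf9 rose in both segments of the CD11c-DTR recipients on every day. Klf7 was even in the graft, at 132, 132 and 126 normalized reads, and reached 271, 225 and 307 in colon day 4. In ileum day 12 it stood at 437, 383, 494 and 416. Each of the 22 gut libraries was above the graft, the lowest with 135. The log2 fold change was 1.37 ± 0.30 to colon day 4 (adjusted p = 0.000459) and 2.21 ± 0.30 to ileum day 12 (1.32e-06). Klf9 averaged 362 ± 116 (SD, n = 3) in the graft, 1146 ± 147 (n = 3) in colon day 4 and 733 ± 82.3 (n = 4) in ileum day 4. Its log2 fold change was 2.00 ± 0.33 to colon day 4 (1.64e-05) and 1.45 ± 0.31 to ileum day 4 (0.00039), with no overlap of these groups. It was 1.73 ± 0.31 (5.97e-05) to ileum day 12, where 1 library, at 482, overlapped the graft.

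Klf6 was variable. The graft held 2860, 1934 and 2121 normalized reads and colon day 4 3567, 2968 and 3217, a log2 fold change of 0.83 ± 0.47 that did not pass (adjusted p = 0.126). It passed without ileum day 4 replicate 3, a library of neither group (0.0315), with only the groups compared (0.91, 0.000686) and with the experiment 2 pair of ileum day 4 alone (0.00569). Ileum day 4 held 1638, 4620, 9705 and 1733, so that only the experiment 1 pair was above the graft. That change passed at 1.44 ± 0.45 (adjusted p = 0.00882, higher in 2 of 4 libraries), but it rested on replicate 3. Without it the value was 0.59 (adjusted p = 0.128). With the experiment 2 pair alone it turned to -0.065 (0.867), and with library totals alone it was 0.94 (0.0617). With only the groups compared it did not pass (0.0970).

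Colon and ileum libraries were compared at each day. A difference within macrophages cannot be told apart from a difference in cell mixture between the 2 segments. On day 4 none of the 10 members passed with edgeR, while 3.18% of all genes did (0.524% higher and 2.66% lower in colon). Of the 10, 3 had an unadjusted p under 0.05, and DESeq2 called 1. On day 8, 3 members were higher in colon (Klf3, Klf4 and Klf5) and 0 lower, where 35.0% of all genes passed, 16.7% higher and 18.3% lower. On day 12, 3 were higher (the same Klf3, Klf4 and Klf5) and Klf7 was lower, where 32.5% of all genes passed, 15.3% higher and 17.2% lower. The median log2 fold change of the members was 0.65 on day 8 and 0.33 on day 12, against -0.05 and -0.01 for all genes. Of the 10 epithelial markers, 7 were higher in colon on day 8 and 10 on day 12, and of the 6 pan-leukocyte genes all were lower in colon on both days.

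**Figure D3:**
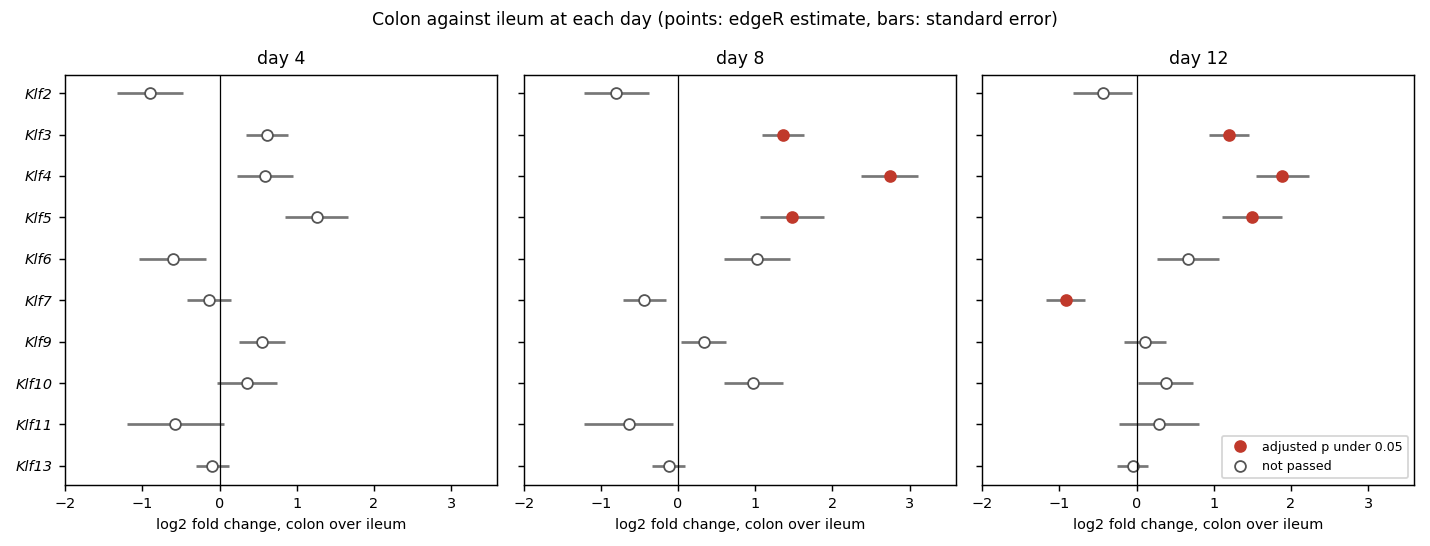
Log2 fold change of colon over ileum for the 10 Klf genes on days 4, 8 and 12, with standard errors as bars and filled points for an adjusted p under 0.05. Klf4 has the largest value on days 8 (2.74) and 12 (1.89), and no point is filled on day 4.

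Klf4 differed most between the segments. On day 8 its 3 colon libraries read 10171 to 14947 and its 4 ileum libraries 1091 to 1757, a log2 fold change of 2.74 ± 0.37 (adjusted p = 0.000122). On day 12 the values were 7563 to 8093 in colon and 1422 to 2834 in ileum (1.89 ± 0.35, adjusted p = 0.000589). Neither day had any overlap. Within experiments the log2 ratio of means on day 8 was 2.69 in experiment 2 and 3.20 in experiment 3. On day 12 it was 1.42, 2.27 and 2.14 in experiments 1, 2 and 3. On day 4 the fit gave 0.59 ± 0.36 (adjusted p = 0.350) over all libraries and 1.79 (9.16e-05) with the experiment 2 pair of the ileum alone, and without ileum day 4 replicate 2 it was 1.04 (0.0358). The colon day 8 library left out of the comparisons held 2328, within the ileal range of day 12.

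Klf5 was higher in colon by 1.47 ± 0.41 on day 8 (adjusted p = 0.00845) and 1.50 ± 0.39 on day 12 (0.00566), on the log2 scale. On day 12 the colon libraries read 6578, 2971, 4369 and 5508 and the ileum libraries 838, 1748, 2395 and 1402, without overlap. On day 4 the value was 1.26 ± 0.41 (adjusted p = 0.0800, not passed). It passed with the experiment as a replicate block (1.82, 0.0123), in DESeq2 (1.28, 0.0321), with the experiment 2 pair alone (2.20, 0.00101) and without ileum day 4 replicates 2 (1.42, 0.0322) or 3 (1.61, 0.0403). The summed epithelial markers were 98595 to 105650 in colon day 8 against 17092 to 33705 in ileum day 8, and 73403 to 100409 against 13242 to 33927 on day 12. Their part in the differences of Klf5, Klf4 and Klf3 was not tested.

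Klf3 followed the same segment order, at 1.36 ± 0.28 on day 8 (adjusted p = 0.000961) and 1.20 ± 0.26 on day 12 (0.00163), with no overlap on either day. On day 4 it was 0.61 ± 0.28 (0.191), and 1.25 (0.00219) with the experiment 2 pair alone. Klf7 ran the other way on day 12, with 255, 206, 231 and 300 normalized reads in colon and 437, 383, 494 and 416 in ileum. That is a log2 fold change of -0.91 ± 0.25 (adjusted p = 0.00828), and within experiments 1, 2 and 3 it was -0.59, -1.09 and -0.47. On day 8 Klf7 was -0.44 ± 0.28 (0.227, not passed). The 7 endothelial markers summed to 1915 to 4883 in ileum day 12 and 293 to 1207 in colon day 12, and their part was not tested.

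Among the members that did not pass, Klf6 and Klf10 were close on day 8. Klf6 was 1.02 ± 0.43 higher in colon (log2, adjusted p = 0.0673) and Klf10 0.98 ± 0.39 (0.0535), and the groups of neither overlapped. Both passed with DESeq2 (0.0493 and 0.0416), with library totals alone (0.0184 and 0.0131), with only the groups compared (0.00902 and 0.0269) and with the experiment 2 pair of ileum day 4 alone (0.0013 and 0.0159). On day 12 Klf6 was 0.66 ± 0.40 higher in colon (0.224) and passed with that pair alone (0.0177). In edgeR both also passed without ileum day 4 replicate 3 (0.0115 and 0.0338), which is in neither group and enters through the shared spread. Klf6 passed too without ileum day 4 replicates 1 (0.0390) or 4 (0.0384), and Klf10 without ileum day 4 replicate 2 (0.0223), colon day 8 replicate 4 (0.0415) or colon day 12 replicate 4 (0.0370). Klf2 had lower means in colon on all 3 days (282, 388 and 409 against 490, 536 and 514 normalized reads), with overlap on each day and no call.

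Across time, 1 call was made among the members. From colon day 4 to day 12, edgeR called 0 members and 0 of 11842 genes, and an unadjusted p under 0.05 was found for 0 members and 245 genes. Klf4 gave -0.21 ± 0.36 on the log2 scale (adjusted p = 1.0). From ileum day 4 to day 12 it alone passed, where 2.30% of all genes did (0.279% up and 2.02% down), at -1.51 ± 0.34 (adjusted p = 0.0231, lower in 4 of 4 libraries, with overlap). Within experiments the log2 ratio was -1.63 in experiment 1 and -0.65 in experiment 2. The call was lost under the replicate block (-1.26, adjusted p = 0.121), with the experiment 2 pair alone (-0.32, 0.993), with only the 2 groups fitted (0.534), with all 4 colon day 8 libraries (0.0634) and without ileum day 4 replicates 2 (0.218) or 3 (0.0776) or ileum day 12 replicates 1 (0.0752), 3 (0.0761) or 4 (0.0837). The difference between the segments in this change was 1.30 ± 0.50 for Klf4 and passed for 0 members and 0 genes (adjusted p = 0.673 for Klf4), with 2 members and 739 genes at an unadjusted p under 0.05.

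The CX3CR1-DTR recipients gave a second set of colon libraries, with a call set at an adjusted p under 0.05 and at least 2-fold. In these libraries the epithelial markers summed to 136131 to 195525, against 33.3 to 45.4 in the graft. The macrophage markers summed to 9243 to 21329 (graft 13846 to 17102) and the pan-leukocyte genes to 2686 to 8171 (graft 121048 to 139755). The count table of these recipients holds no graft of its own, so the 3 graft libraries of the CD11c-DTR experiment served. State and count table thus differ together in the comparison with the graft and cannot be told apart. From the graft, Klf5 rose and Klf3, Klf10 and Klf13 fell, so that 1 of 10 rose and 3 fell. Of 11751 genes 66.9% passed, 34.2% up and 32.7% down. Klf5 stood at 6391 to 11807 normalized reads in the 6 libraries (median 7725) and 5.55 to 35.6 in the graft. Klf13 went from 12756, 13467 and 10686 to between 585 and 1501, 8.61-fold lower (SE of the log2 fold change 0.23, adjusted p = 1.86e-08). Klf10 averaged 121 ± 24.3 (SD, n = 6) against 909 ± 236 (n = 3) in the graft, a log2 fold change of -2.62 ± 0.29 (adjusted p = 1.52e-06). Klf3 read 371 to 692 against 1247 to 1598 (-1.12 ± 0.18, 6.68e-05). Every one of the 6 libraries lay outside the graft range for these 4 genes. Klf2 (-0.96 ± 0.40, adjusted p = 0.0420), Klf4 (-0.62 ± 0.19, 0.00765) and Klf9 (0.84 ± 0.29, 0.0152) stayed under 2-fold. Klf2 passed 2-fold without graft replicate 3 (-1.22), colon day 12 replicate 4 (-1.05) or CX3CR1-DTR replicate 6 (-1.14), and Klf9 without graft replicate 3 (1.08). Klf2 also passed 2-fold with RLE scaling (-1.07), library totals alone (-1.24), the filter in 8 libraries (-1.18) and DESeq2 (-1.07). Klf7, which rose in the CD11c-DTR recipients, averaged 123 ± 28.0 normalized reads (SD, n = 6) against 189 ± 4.54 (n = 3) in the graft, and all 6 libraries lay below the graft, but the change of -0.34 ± 0.24 did not pass (adjusted p = 0.206). Klf11 averaged 204 ± 55.8 against 225 ± 30.8, with overlap (adjusted p = 0.694).

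Set against colon day 12 of the CD11c-DTR recipients, 5 members were lower in the CX3CR1-DTR libraries (Klf3, Klf4, Klf7, Klf9 and Klf10) and Klf11 was higher. Among all genes 45.3% passed, 32.7% lower and 12.6% higher. Klf4 read 3065 to 4652 normalized reads (median 3463) in the 6 CX3CR1-DTR libraries and 11192, 13433, 14576 and 13826 in colon day 12, a log2 fold change of -1.87 ± 0.17 (adjusted p = 5.32e-07). Klf10 (-2.12 ± 0.28, 1.42e-05), Klf7 (-1.81 ± 0.21, 4.57e-06), Klf3 (-1.67 ± 0.17, 1.38e-06) and Klf9 (-1.19 ± 0.25, 0.00071) were likewise lower in 6 of 6 libraries, without overlap. Klf5 did not pass, at 0.06 ± 0.29 (adjusted p = 0.876), and its groups overlapped. Klf13 (-0.67 ± 0.21, 0.0135) and Klf6 (-0.69 ± 0.23, 0.0176) stayed under 2-fold. Klf11 was 1.04 ± 0.33 higher (0.0139) from 142 to 272 against 57.6 to 175, with overlap. It fell under the call without colon day 12 replicates 1 (0.83), 2 (0.98) or 3 (0.91) or CX3CR1-DTR replicates 1 (0.99) or 4 (0.98), and with the filter in 8 libraries (0.84). The recipients, the day and the count table of these groups differ together and cannot be told apart. Their epithelial sums overlapped, at 136131 to 195525 in CX3CR1-DTR and 125907 to 158361 in colon day 12. Other markers moved between these groups. In CX3CR1-DTR 4 of 5 tested fibroblast markers were lower (median log2 fold change -2.02). So were 2 of 6 endothelial, 2 of 7 macrophage, 1 of 4 monocyte, 1 of 6 pan-leukocyte and 1 of 10 epithelial markers. Higher were 1 macrophage marker and 1 of 5 goblet cell markers. The 5 goblet cell markers summed to 74601 to 93006 (median 83643) in CX3CR1-DTR and 42952 to 86576 (median 47250) in colon day 12. The part of all these markers in the KLF differences was not tested.

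**Figure D4:**
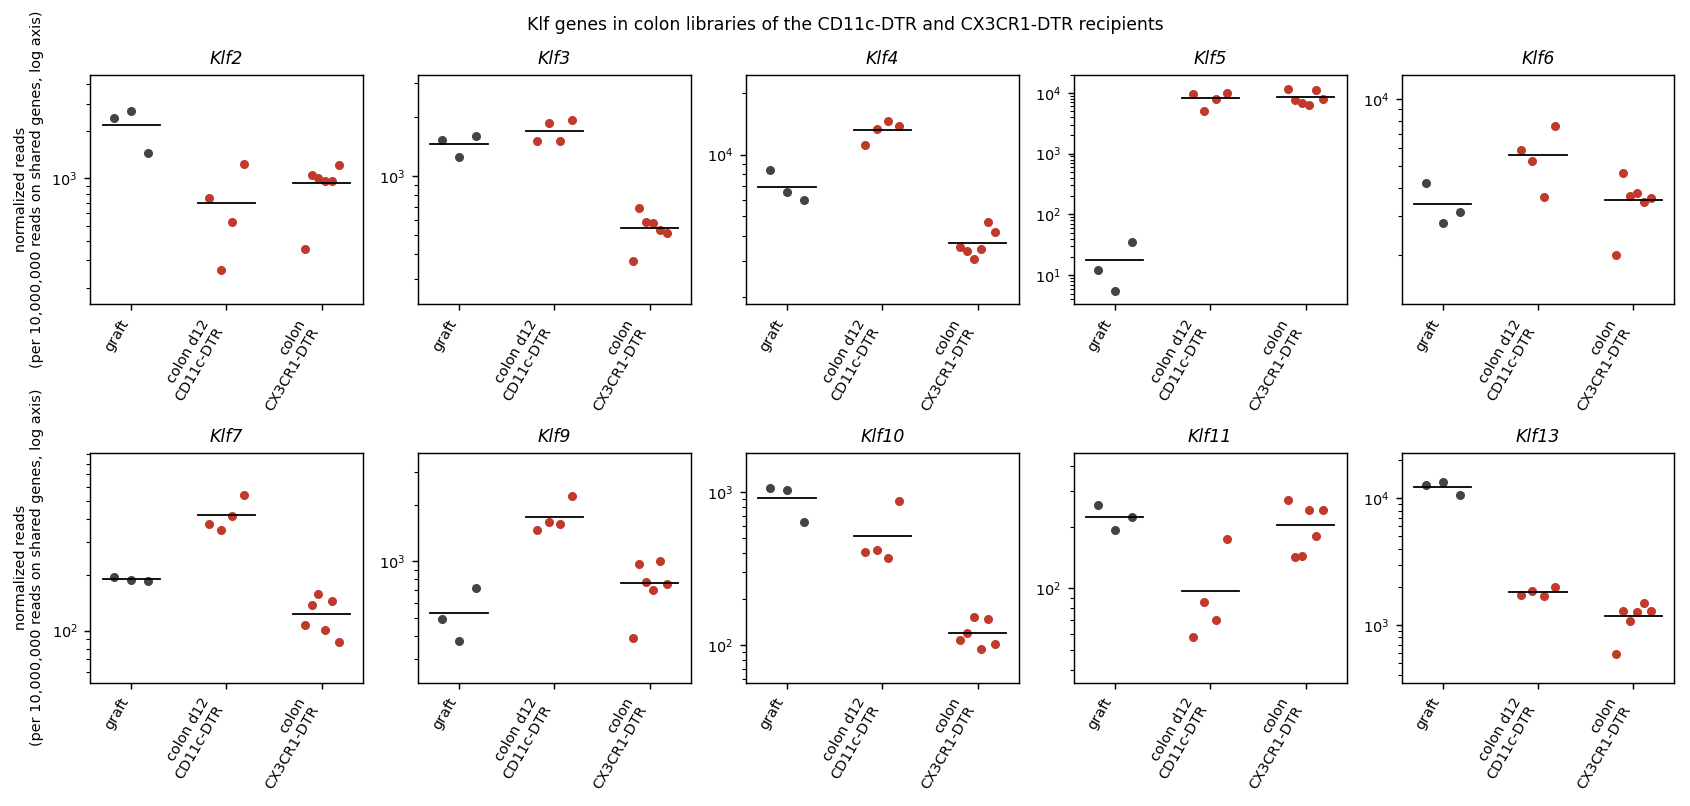
Normalized reads of each Klf gene (log axis, per 10000000 reads on genes listed in both tables) in the graft, colon day 12 of CD11c-DTR recipients and colon of CX3CR1-DTR recipients, with points for libraries and bars for means. Klf4, Klf3, Klf7, Klf9 and Klf10 sit lower in all 6 CX3CR1-DTR libraries than in colon day 12, and Klf5 overlaps.

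The lists that follow stand beside the shares of all genes given above, 35.9% up and 24.5% down in colon day 4 and 36.2% and 20.5% in ileum day 4. The 6 pan-leukocyte genes also fell in both (medians -4.30 and -2.12), and the part of this change of markers in the lists was not tested. The remaining relatives were few. Of 16 further KLF and SP genes, 5 passed the filter on low values (Klf16, Sp1, Sp2, Sp3 and Sp4). Sp2 and Sp3 fell from the graft to day 4 in both segments and 0 rose. Sp2 went from 395 ± 39.0 (SD, n = 3) to 71.5 ± 19.6 (n = 3) normalized reads in colon and 55.8 ± 25.4 (n = 4) in ileum, and Sp3 from 438 ± 145 to 192 ± 40.9 and 187 ± 16.7. Klf14 and Sp8 had no read in any of the 25 libraries compared in the CD11c-DTR experiment.

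The kinases and MEF2 factors that are known to act upstream of Klf2 and Klf4 mostly fell on day 4. From the graft to colon day 4, 5 of 7 genes of this branch fell and 1 rose, with a median log2 fold change of -1.59 against 0.21 over all genes. In ileum day 4, 4 fell and 1 rose (median -0.89 against 0.23). Mapk7, which encodes ERK5, fell by 2.30 ± 0.32 on the log2 scale in colon (adjusted p = 1.97e-06) and by 2.02 ± 0.30 in ileum (6.03e-06). Map3k3, a kinase at the head of the branch, fell by 2.16 ± 0.39 and 1.68 ± 0.36. Its relative Map3k2 rose, by 1.01 ± 0.26 in colon and 0.61 ± 0.25 in ileum. MEF2 factors are known to bind sites of the kind matched in the Klf2 promoter, and binding was not measured here.

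Genes linked to KLF2 moved in both directions. Of 6, 3 rose and 3 fell in colon day 4, and 3 rose and 2 fell in ileum day 4. Itgb7, an integrin chain of gut homing, had log2 fold changes of -7.48 ± 0.97 in colon (adjusted p = 6.69e-07) and -4.78 ± 0.75 in ileum (9.66e-06). S1pr1, a receptor for exit from tissues, rose from 0 to 2 counts per graft library to 70.6 ± 26.8 normalized reads in colon. The ratio to the pooled graft level had a Poisson 95% interval of 10.4 to 147. The 7 endothelial markers summed to 81.4 to 126 in the graft, 384 to 1003 in colon day 4 and 188 to 4523 in ileum day 4, and their part in the rise of S1pr1 was not tested. Between the segments, 5 of the 6 genes were lower in colon on day 8 and 3 on day 12, and 0 were higher. Among all genes, 18.3% were lower in colon on day 8 and 17.2% on day 12. All 7 endothelial markers and all 6 pan-leukocyte genes were also lower in colon on both days, and their part in this difference was not tested.

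The list of early TGF-beta response genes, which holds no KLF, had 4 of 7 rise in colon day 4 and 5 of 7 in ileum day 4 with 0 falls. Smad7, the inhibitory SMAD, rose by 2.74 ± 0.29 on the log2 scale in colon (adjusted p = 3.22e-08) and by 2.80 ± 0.28 in ileum (2.01e-08). Neither Klf10 nor Klf11 passed as a rise. Of 6 glucocorticoid-responsive genes that were tested, 0 rose and 3 fell in colon day 4, and 1 rose and 1 fell in ileum day 4. Tsc22d3, which encodes GILZ, fell in colon from 1516 ± 341 to 372 ± 149 normalized reads (SD, n = 3 each, adjusted p = 0.00031), and Per1, a clock gene, from 596 ± 424 to 195 ± 41.4 (0.0460). On the log2 scale Sgk1 rose by 0.91 ± 0.37 in ileum, where the receptor gene Nr3c1 fell by 0.63 ± 0.21. Of the 12 corepressors and coactivators, 5 fell in colon and 4 in ileum, and 0 rose. Ep300, an acetyltransferase, fell in both, from 716 ± 121 normalized reads (SD, n = 3) to 247 ± 22.3 (n = 3) in colon and 267 ± 94.3 (n = 4) in ileum. On the log2 scale Hdac2 fell in colon by 1.21 ± 0.43 and Wdr5 in ileum by 0.97 ± 0.27. Among 4 ubiquitin ligases of KLF proteins, Wwp1 rose by 2.23 ± 0.39 in colon and 2.21 ± 0.38 in ileum, Smurf1 rose in ileum by 1.06 ± 0.41, and 0 fell.

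The genes whose levels ran most like a member were taken over the 22 gut libraries of the CD11c-DTR recipients, for the 4 members that differed between the segments. Klf4 ran most like Tfcp2l1 (Pearson's r = 0.99), Parm1 (0.99) and Ezr (0.98). For Klf5 they were Rab25, Ptprf and Prss32, all at 0.96 to 0.97, and for Klf3 Ndrg2, Ttc38 and St6galnac6, all at 0.96. Rab25 and Ezr (ezrin) are known from epithelial cells. Klf7 had lower values, with Zbtb4 (0.87), Ehd2 (0.83) and Mmp2 (0.82). The libraries share segment, experiment and depth, so these coefficients describe the order of libraries and carry no p.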

How the data were processed

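Gene counts were analysed for 25 libraries of the CD11c-DTR transfer experiment and, in a separate table, 6 of CX3CR1-DTR recipients. Libraries were made by a variant of MARS-seq, in which transcripts are tagged near their 3′ end. The authors aligned reads to mm9 with HISAT 0.1.6 and deposited raw counts of sense reads on exons, made with HOMER with 1 transcript kept per gene. Whether molecular identifiers were collapsed is not given in the sources used here. In the second table, 52 columns without a name were not used. The study states 4 repeats for CX3CR1-DTR without naming them, and all 6 libraries were kept. No duplicate library was found among 51 pairs within groups (chi-square over degrees of freedom at least 4.73).

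The counts were fitted with edgeR 4.0.16 (quasi-likelihood test, TMM, R 4.3.3) over 7 groups, on the 11842 genes that reached 50 normalized reads in 3 or more libraries. A second fit of graft, colon day 12 and CX3CR1-DTR used 11751 genes. The threshold was an adjusted p (Benjamini-Hochberg) under 0.05 over all genes tested, and for CX3CR1-DTR also at 2-fold. The standard error was taken as |log2 fold change| over the root of the F statistic. The median log2 fold change of all genes from the graft was 0.20 to 0.24 with TMM and -0.35 to -0.04 with library totals alone. A floor of 3 counts equals 3.51 to 27.6 normalized reads. Such limits and Poisson intervals cover counting error alone. Tables were handled with pandas 2.3.3 and figures drawn with matplotlib 3.10.9. The fit was also run on simulated counts in which few genes changed. Most genes passed in the graft comparisons, so that run does not bear on their calls.

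The labels' dates mark the experiment that libraries share, and this served as the replicate block of an alternative fit. Deviations from group means of libraries of the same experiment in other groups had a median correlation of 0.02 over 96 pairs, against -0.01 over 171 pairs of other experiments. Other alternatives were RLE scaling, library totals alone, other filters, DESeq2 1.42.0, all 4 colon day 8 libraries, the groups compared alone, the ileum day 4 pair of experiment 2 alone and each library left out.

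All 10 members are named. Of the other lists, the 2 largest rises and the 2 largest falls that passed from the graft to day 4 were eligible, and genes that run alike are the 3 with the highest Pearson correlation of log2(normalized reads + 50). Klf14, Klf16, Sp1, Sp4 and Sp8 were named after their values were seen. Some genes that this rule would name are not reported here. Members and lists were chosen with earlier results of these data known.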

Additional observations from a re-analysis of the deposited data

Results flagged for a closer look

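The change of a member from the graft differed between colon and ileum, by the direct test of colon against ileum, in 7 cases. On day 8 these were Klf3 (log2 1.36), Klf4 (2.74) and Klf5 (1.47). On day 12 they were Klf3 (1.20), Klf4 (1.89), Klf5 (1.50) and Klf7 (-0.91). That is 3 of 10 members on day 8 and 4 of 10 on day 12, where 35.0% and 32.5% of all genes passed. For Klf4 the normalized reads of the graft lay between those of the segments on days 8 and 12, without overlap. Its fall from the graft to ileum day 12 did not pass.

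Values of each member in groups of 4 or 6 libraries, 50 sets in all, were checked for 1 library far from the rest. Of these, 2 had one, and chance gives about 1 in 20. Klf13 stood at 1227 normalized reads in ileum day 12 replicate 3, against 936 to 985 in the other libraries. Klf2 stood at 355 in CX3CR1-DTR replicate 1, against 959 to 1228.

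The colon day 8 library that enters no comparison held Klf5 at 3409, Klf6 at 5650, Klf7 at 403 and Klf9 at 698 normalized reads, each above every graft library. Its epithelial markers summed to 43836. The macrophage markers reached 73594, against 3291 to 18605 in the other colon libraries of the CD11c-DTR recipients, and the pan-leukocyte genes 27544, against 1658 to 7511.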

How the results depend on the processing

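Over 90 member results (60 past the threshold), 2756 values were recomputed under other settings. Direction and side of the threshold were kept in 2619, 56 lost the call, 74 gained it and 7 changed sign. Klf3, Klf4 and Klf5 (colon against ileum, days 8 and 12) and Klf7 (day 12) kept their calls in all of them. With the experiment as a replicate block, 65 of 71 results kept their call, and the 6 others are given with the results. The number of members passing moved by more than 1.5 times as follows, and the cause was not tested. From the graft to ileum day 4 it was 4 with only the groups compared, against 7. For colon against ileum day 4 it was 1 with DESeq2, 1 with the replicate block and 4 with the ileum day 4 pair of experiment 2 alone, against 0. For day 8 it was 5 with library totals alone, DESeq2, only the groups compared or the experiment 2 pair alone, against 3. From ileum day 4 to day 12 it was 2 with DESeq2 and 0 with the replicate block, all 4 colon day 8 libraries, only the groups compared or the experiment 2 pair alone, against 1. Leaving out 1 library gave 5 to 9 from the graft to ileum day 12, 0 to 2 and 3 to 5 for colon against ileum days 4 and 8, and 0 to 3 from ileum day 4 to day 12.

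None of the values that changed sign had passed, except Klf6. With the experiment 2 pair alone, graft to ileum day 4 was -0.51 for Klf4 and -0.065 for Klf6 (log2). Klf5 in CX3CR1-DTR against colon day 12 was -0.13 with the filter in 8 libraries and -0.12 to 0.22 with 1 library left out. Klf3 from the graft to ileum day 4 ran from -0.34 to 0.049 with 1 library left out. Klf11 is limited by its counts, at most 59 per gut library of the CD11c-DTR recipients.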
